A study of Mus musculus with 3 samples.

Results

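STATs are latent transcription factors that Janus kinases phosphorylate when a cytokine binds its receptor, after which they enter the nucleus as dimers. The SOCS proteins and CISH are made in response and bind receptors or kinases to end the signal, so that their transcripts are classical readouts of a recent cytokine stimulus. In the glomerulus, STAT signalling carries the response to interferons in endothelium and to interleukin-6 in mesangial cells, and STAT4 carries interleukin-12 signalling in T and NK cells. The genes described are 5 STAT factors, *Stat2*, *Stat3*, *Stat4*, *Stat5a* and *Stat6*, and 4 feedback genes, *Socs1*, *Socs2*, *Socs3* and *Cish*. They were chosen by gene symbol, and all 9 were found among the 32285 genes of the files, with 1274 UMIs (*Stat5a*) to 163548 UMIs (*Socs3*) over the kept barcodes. A UMI is a molecular tag that marks a single captured transcript molecule.

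Glomerular cells of 3 mouse kidney libraries were profiled by droplet single-cell RNA sequencing. The control library came from mice whose strain was not given for this experiment. MRL/lpr mice carry the lpr allele of *Fas* and develop a lupus-like nephritis, and the methods describe female animals that entered as lupus nephritis at about 16 weeks. The untreated MRL/lpr library came from such mice, and the treated library from MRL/lpr mice given 800000 hUC-MSCs, mesenchymal stem cells grown from human umbilical cord, by tail vein and examined at day 21. Each condition was 1 library with an unknown number of mice, so that no difference between conditions has a replicate check and no test was made. The untreated MRL/lpr library enters both comparisons.

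After barcodes with at least 1000 UMIs and at most 10% mitochondrial UMIs were kept, 14109 barcodes remained in untreated MRL/lpr, 11018 in control and 16586 in treated MRL/lpr mice. The median was 3716, 5069 and 2727 UMIs per barcode, in that order, and pairs of libraries had 35 to 61 barcodes in common. The study's methods give about 8000 captured cells, fewer than the barcodes kept in any library, so that kept barcodes are not a count of cells. Cells were placed in classes by fixed marker genes, and 26685 of 41713 barcodes received a class. The remainder made up 37.8%, 14.0% and 49.2% of the libraries. Leading genes were *Emcn*, *Cdh5* and *Kdr* in endothelial-like cells, *Cdkn1c* and *Nphs1* in podocyte-like cells, and *Itga8* and *Serpine2* in mesangial and stromal-like cells, several of them markers of the gate itself and so no separate check of the classes. Immune cells were scarce in the control library, with 67 mononuclear phagocyte-like and 161 T and NK-like cells, against 1056 and 877 in untreated MRL/lpr mice. Levels are given as CPM, the UMIs of a gene divided by all UMIs of a class in a library and brought to the usual fixed total. All intervals are 95% intervals that cover counting error only. A gene was called higher or lower when its ratio passed 2-fold with at least 20 UMIs over both libraries, a rule of size and not a test.

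Promoter stretches of 4 members are shown because these members led the levels or differences described and their windows held motifs that STAT complexes are known to bind. RefSeq windows of 300 bases (250 before to 50 after a start) were found for 8 of 9 members, in 10 windows, and *Socs2* had none. Capitals mark TTCNNNGAA, the gamma-activated site (GAS) bound by STAT dimers, which reads the same on both strands, or the core of the interferon-stimulated response element (ISRE), searched on both strands, which is bound by the STAT2 complex with IRF9. Sequences run 5′ to 3′ on the strand of the gene in GRCm38.p6: *Stat2* at chr10:128270248-128270497 (plus), *Socs1* at chr16:10785537-10785786 (minus), *Socs3* at chr11:117969452-117969616 (minus) and *Cish* at chr9:107296649-107296678 (plus).
Stat2: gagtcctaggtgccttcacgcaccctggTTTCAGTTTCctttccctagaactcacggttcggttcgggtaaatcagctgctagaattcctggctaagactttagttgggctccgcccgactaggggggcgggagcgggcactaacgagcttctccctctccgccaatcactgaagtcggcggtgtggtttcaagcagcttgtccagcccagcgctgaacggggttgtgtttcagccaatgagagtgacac
Socs1: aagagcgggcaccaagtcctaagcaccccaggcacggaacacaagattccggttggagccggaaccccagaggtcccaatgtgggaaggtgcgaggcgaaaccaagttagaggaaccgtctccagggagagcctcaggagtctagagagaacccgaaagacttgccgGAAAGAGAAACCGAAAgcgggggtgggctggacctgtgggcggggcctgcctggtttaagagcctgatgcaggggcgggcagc
Socs3: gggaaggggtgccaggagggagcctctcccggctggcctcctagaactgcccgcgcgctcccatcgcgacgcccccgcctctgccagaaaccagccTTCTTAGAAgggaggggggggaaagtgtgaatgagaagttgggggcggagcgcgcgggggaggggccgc
Cish: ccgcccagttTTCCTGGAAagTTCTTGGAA
The *Stat2* stretch held an ISRE core 222 to 213 bases before the start, and the *Socs1* stretch held 2 overlapping ISRE cores at 83 to 74 and 77 to 68 bases before it. The *Socs3* stretch held a GAS motif 154 to 146 bases before the start, and the *Cish* stretch held 2 GAS motifs just after the start. These starts are those of RefSeq. The GENCODE bounds of *Socs3* and *Cish*, given below, begin further upstream, so that both stretches lie inside the gene by that annotation. An ISRE core was also found in a window of *Stat4*, 97 to 88 bases before its start, and the windows of *Stat3*, *Stat5a* and *Stat6* held neither motif. Of all 32851 RefSeq windows of this length, 8.30% held the GAS motif, 3.44% the ISRE core and 11.3% either, and a match of letters is no evidence of binding in these cells.

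The genes lie on 5 chromosomes of GRCm38 (GENCODE M21). *Stat3* (11:100885098-100939540, minus) and *Stat5a* (11:100859351-100885169, plus) overlap tail to tail by 72 bases on opposite strands, and since the strand setting of the count step was not given, reads of this overlap could be credited to either gene. *Stat2* (10:128270559-128292849, plus), *Stat6* (10:127642986-127660957, plus) and *Socs2* (10:95385362-95417180, minus) share chromosome 10. *Stat4* lies at 1:51987148-52107189 (plus), *Socs1* at 16:10782240-10785536 (minus), *Socs3* at 11:117966079-117970047 (minus) and *Cish* at 9:107296026-107302784 (plus).

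*Stat4*, which relays interleukin-12 signals, had its highest level in T and NK-like cells, at 197 CPM (178 to 217) in untreated MRL/lpr, 363 CPM (313 to 418) in control and 152 CPM (132 to 173) in treated MRL/lpr mice. Endothelial-like cells had 16.5, 11.9 and 16.7 CPM and held 30.8%, 48.4% and 37.8% of all *Stat4* UMIs of the kept barcodes, against 36.8%, 26.5% and 23.2% in T and NK-like cells. The 27 control neutrophil-like cells had 77.3 CPM (21.1 to 198) from 4 UMIs, against 14.3 and 10.8 CPM in untreated and treated MRL/lpr mice. Podocyte-like cells held 3, 5 and 2 *Stat4* UMIs in all. In cells thinned to 1000 UMIs each, 14.1%, 29.2% and 13.7% of T and NK-like cells had a *Stat4* UMI, against 0%, 0.0422% and 1.06% of podocyte-like cells. The median depths of these classes before thinning were 1890, 2666 and 1733 UMIs for T and NK-like cells and 7088, 6681.5 and 6031.5 UMIs for podocyte-like cells. The 0% in podocyte-like cells was 0 of 910 cells. *Stat5a*, which acts downstream of interleukin-2 and growth hormone receptors, was also highest in T and NK-like cells at 22.9 CPM (16.8 to 30.6), 41.3 CPM (25.9 to 62.6) and 23.8 CPM (16.5 to 33.2), with intervals that overlapped among the libraries.

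The other STAT genes were spread over the classes. *Stat2*, the interferon-response partner of IRF9, stood at 113 CPM (109 to 118) in untreated MRL/lpr, 137 CPM (132 to 141) in control and 73.7 CPM (70.1 to 77.4) in treated endothelial-like cells. In mesangial and stromal-like cells it stood at 55.2, 134 and 60.9 CPM, and in podocyte-like cells at only 19.3, 21.8 and 19.3 CPM. Endothelial-like cells thus had more *Stat2* than mesangial and stromal-like cells in both MRL/lpr libraries, while the intervals of these classes overlapped in control mice. *Stat3*, which interleukin-6 type cytokines activate, ranged over the 5 main classes (endothelial, mesangial and stromal, podocyte, mononuclear phagocyte, and T and NK-like) from 107 CPM in control podocyte-like cells to 359 CPM in control mesangial and stromal-like cells. *Stat6*, the factor of interleukin-4 and interleukin-13, ranged over these 5 classes from 23.7 CPM in podocyte-like cells of untreated MRL/lpr mice to 81.7 CPM (54.3 to 118) in control phagocyte-like cells. In endothelial-like cells *Stat6* was nearly level at 36.8, 37.9 and 39.6 CPM.

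*Socs3* and *Socs1* were highest in endothelial-like cells, or level between these and mesangial and stromal-like cells. *Socs3*, the inhibitor of gp130 receptors, reached 1768 CPM (1750 to 1787) in untreated MRL/lpr, 1133 CPM (1121 to 1145) in control and 682 CPM (671 to 694) in treated endothelial-like cells. In mesangial and stromal-like cells it reached 1550 CPM (1513 to 1587), 1146 CPM (1124 to 1168) and 429 CPM (412 to 447), so that these classes overlapped in control mice and differed in both MRL/lpr libraries. Smooth muscle and renin-like cells came next with 1124, 377 and 419 CPM from 173, 37 and 76 UMIs. *Socs1*, which blocks Janus kinases after interferon, was far more confined: endothelial-like cells had 442 CPM (433 to 451), 396.5 CPM (389 to 404) and 167 CPM (161 to 173), and they held 63.3%, 73.5% and 58.4% of all *Socs1* UMIs of the kept barcodes. T and NK-like cells had 106, 80.8 and 96.4 CPM of *Socs1*, and phagocyte-like cells 13.1, 14.6 and 16.4 CPM.

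*Socs2*, which restrains growth hormone signalling, was highest among the 5 main classes in mesangial and stromal-like cells, at 98.4 CPM (89.3 to 108) in untreated MRL/lpr, 52.6 CPM (47.9 to 57.6) in control and 48.8 CPM (43.1 to 55.2) in treated mice. *Cish*, a STAT5-induced inhibitor of cytokine receptors, stood at 30.2 CPM (27.8 to 32.7), 34.6 CPM (32.5 to 36.8) and 12.6 CPM (11.1 to 14.2) in endothelial-like cells. The collecting duct-like cells, with only 112, 88 and 40 cells, had 23.6, 32.5 and 36.0 CPM of *Cish*. Free RNA, read from barcodes with 1 to 100 UMIs, held 733, 549 and 491 CPM of *Socs3* and 115, 117 and 81.3 CPM of *Socs1*. The *Socs3* levels of phagocyte-like cells (155, 210 and 150 CPM) and T and NK-like cells (149, 67.6 and 81.7 CPM) lay below its level within free RNA. Free RNA made up only part of the UMIs of a class. That part was estimated at 8.10%, 3.72% and 6.88% in phagocyte-like cells and 18.0%, 5.76% and 12.7% in T and NK-like cells.

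**Figure D1:**
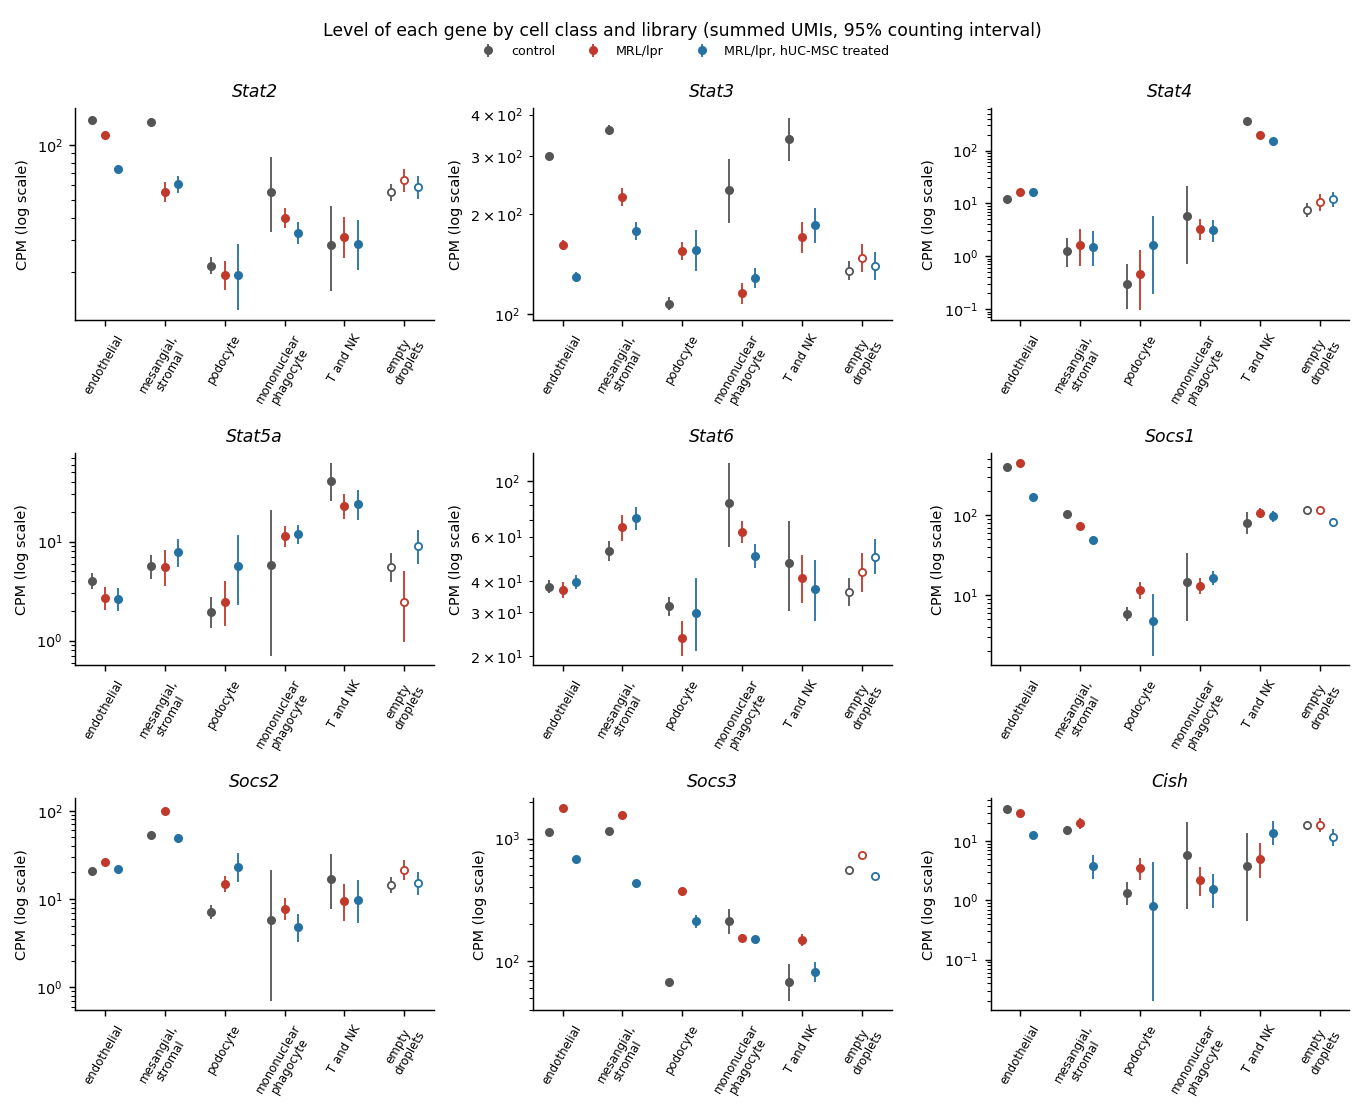
Level of each member in CPM (log axis) in 5 cell classes and in barcodes with 1 to 100 UMIs (empty droplets), with 1 point for each library and its 95% counting interval as a bar. *Socs1* sits highest in endothelial-like cells, *Stat4* in T and NK-like cells, and *Socs3* in endothelial-like and mesangial and stromal-like cells, where the treated library is the lowest of the 3.

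In endothelial-like cells, the treated library had less of 3 feedback genes than the untreated MRL/lpr library, and no STAT gene passed 2-fold. *Socs1* fell from 442 to 167 CPM, a log2 ratio of -1.41 (-1.46 to -1.35). *Socs3* fell from 1768 to 682 CPM, a log2 ratio of -1.37 (-1.40 to -1.35). *Cish* fell from 30.2 to 12.6 CPM, a log2 ratio of -1.26 (-1.48 to -1.05). The treated library was also below the control library for each of these genes. The 3 members past 2-fold were all lower, and of all genes tested 4.48% were lower by this rule, 6.74% higher and 11.2% past it in either direction. The fourth feedback gene, *Socs2*, had 22 against 26.1 CPM, and *Stat2* had the largest ratio among the STAT genes at -0.62 (-0.71 to -0.53). *Stat3* was at -0.32, and *Stat4*, *Stat5a* and *Stat6* were within 0.11 of 0 on the log2 scale. When cells were compared within 5 strata of immediate-early and heat shock UMIs, neither *Socs1* nor *Socs3* passed 2-fold in any stratum, and *Cish* did so in 1, with 21 to 30 such UMIs.

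Between untreated MRL/lpr and control endothelial-like cells, 0 of 9 members passed 2-fold, while 18.3% of all genes tested did (12.2% higher and 6.05% lower). *Socs3* had a log2 ratio of 0.64 (0.62 to 0.66), and *Stat3* one of -0.89 (-0.95 to -0.83), from 161.5 CPM in untreated MRL/lpr and 299 CPM in control mice. These ratios had opposite signs for STAT3 and for a feedback gene that STAT3 is known to induce. The remaining members lay between -0.57 (*Stat5a*) and 0.47 (*Stat4*). The median over the 9 members was -0.04, against 0.04 over all genes tested, and with treatment it was -0.32 against 0.13. In cells with 11 to 20 immediate-early and heat shock UMIs, *Socs1* (336 against 116 CPM) and *Socs3* (1190 against 577 CPM) were past 2-fold higher in untreated MRL/lpr than in control cells.

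The feedback transcripts were also counted cell by cell. In endothelial-like cells thinned to 1000 UMIs, 74.5% of untreated MRL/lpr, 58.5% of control and 41% of treated cells had a *Socs3* UMI, against 93.6%, 87.1% and 71.8% before thinning. Control podocyte-like cells, level with control T and NK-like cells in summed *Socs3* (66.8 against 67.6 CPM), had 4.81% by the thinned measure. Cells with at least 5 *Socs3* UMIs, not thinned, made up 70.1%, 51.6% and 24.6% of the class, whose median depth was 3973.5, 4342 and 3423 UMIs, and the highest count in a single cell was 84, 37 and 33. *Socs1* was found in 30.7%, 25.9% and 12.2% of thinned cells, and *Cish* in 2.69%, 3.39% and 1.15%. The order of the libraries was the same in these shares as in the summed levels of each gene.

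*Socs1* and *Cish* transcripts were more frequent in endothelial-like cells that held *Socs3*. Cells with a *Socs3* UMI, compared with cells without within a library after thinning, had a log2 ratio of *Socs1* of 0.48 (0.31 to 0.66) in untreated MRL/lpr, 0.82 (0.68 to 0.96) in control and 1.29 (1.06 to 1.51) in treated mice. For *Cish* the values were 0.79, 0.73 and 1.05. *Socs2*, at -0.01, 0.20 and 0.01, had intervals that held 0 in all 3 libraries. Split by *Socs1* instead, *Cish* gave 0.50 (-0.09 to 1.08), 0.46 (0.00 to 0.90) and 0.26 (-1.03 to 1.35). Split by *Socs3*, *Irf1*, an interferon-induced factor, gave 0.63, 0.57 and 0.79. *Kdr*, a marker of the class, gave -0.17, -0.11 and -0.18, and *Stat6* gave 0.11, 0.15 and -0.14 with intervals that held 0. *Stat3* gave 0.10, 0.34 (0.19 to 0.49) and -0.12, and *Stat2* gave 0.27, 0.04 and 0.40 (0.07 to 0.73). The intervals not shown for *Stat3* and *Stat2* held 0. These are splits of cells within single libraries, and cells of a library are not replicates.

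Immediate-early and heat shock genes such as *Fos*, *Egr1* and *Atf3*, a list of 10 genes drawn up after the values were seen, also differed between the libraries. Their summed level in endothelial-like cells was 31631 CPM in untreated MRL/lpr, 40050 CPM in control and 14070 CPM in treated mice, and in mesangial and stromal-like cells 25112, 37531 and 9870 CPM. Cells were therefore split by the UMIs of this list among 1000 UMIs drawn from each cell. In endothelial-like cells with 0 to 10 such UMIs, *Socs3* was at 366 CPM in 316 untreated MRL/lpr cells, 198 CPM in 664 control cells and 334 CPM in 2111 treated cells. With 21 to 30 such UMIs it was at 1656, 928 and 1076 CPM, and with 41 or more at 2297, 1436 and 1732 CPM.

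Within each of the 5 strata *Socs3* was higher in untreated MRL/lpr than in control cells, and the treated cells lay between them. *Socs1* was at 63.9, 33.1 and 76.6 CPM in the lowest stratum, at 336, 116 and 181 CPM with 11 to 20 such UMIs, at 425, 261 and 283 CPM with 21 to 30 such UMIs, and at 516, 528 and 304 CPM in the highest. The log2 ratio of treated over untreated MRL/lpr cells in the lowest stratum was -0.13 for *Socs3*, 0.26 for *Socs1* and 0.62 for *Cish*, none of them past 2-fold, and the last 2 had the sign opposite to that of the whole class. *Cish* rested there on 6 UMIs in untreated MRL/lpr cells (5.99 CPM, 2.20 to 13.04) and 72 in treated cells (9.21 CPM, 7.20 to 11.6). In each of the 4 other strata both genes were lower in treated cells: with 21 to 30 immediate-early and heat shock UMIs, *Cish* was at 14.5 against 28.9 CPM and *Socs1* at 283 against 425 CPM. With 31 to 40 and with 41 or more such UMIs, *Cish* rested on 16 and 4 UMIs in 161 and 35 treated cells. Its intervals there overlapped those of untreated MRL/lpr cells. In the lowest stratum *Stat4* (1.41) and *Socs2* (1.05) were higher with treatment by more than 2-fold, and *Stat5a*, counted as higher by the same rule, had 0 UMIs in the untreated MRL/lpr cells and so has no ratio. There 9.85% of all genes were past 2-fold in either direction. *Stat3* was at 109, 102 and 118 CPM in the lowest stratum and parted above it, with 158 CPM in untreated MRL/lpr, 299 CPM in control and 148 CPM in treated cells at 21 to 30 such UMIs. *Fos* and *Junb*, which also belong to the STAT3 target list used here, are immediate-early genes themselves.

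**Figure D2:**
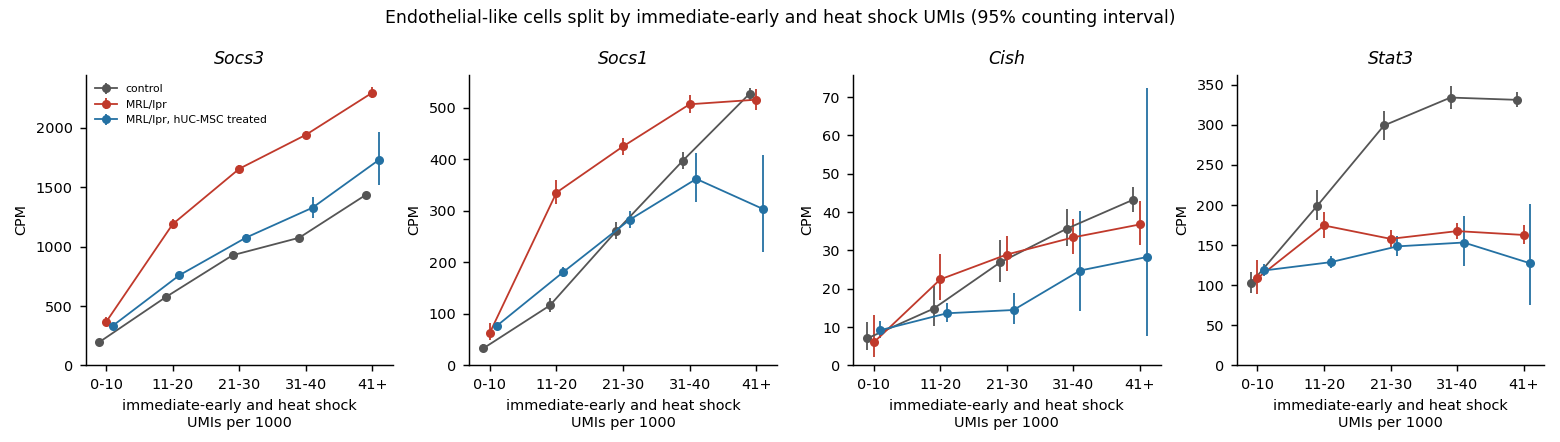
CPM of 4 members in endothelial-like cells, split by the immediate-early and heat shock UMIs among 1000 UMIs of each cell (x axis), with lines for the 3 libraries and 95% counting intervals as bars. *Socs3* rises from the lowest to the highest stratum in every library, with untreated MRL/lpr at the top of each stratum, and the lowest stratum holds 316 untreated but 2111 treated cells.

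Mesangial and stromal-like cells had the largest treated difference for *Socs3* among the 5 main classes. It fell from 1550 to 429 CPM, a log2 ratio of -1.85 (-1.92 to -1.78) or 3.61-fold. *Cish* fell from 86 UMIs (19.96 CPM) to 20 UMIs (3.79 CPM), a log2 ratio of -2.40 (-3.18 to -1.68), and its ratio was -0.79 when cells were thinned to 1000 UMIs each. *Socs2* fell from 98.4 to 48.8 CPM, a log2 ratio of -1.01 (-1.24 to -0.78) that only just passed 2-fold, and the treated level was close to the 52.6 CPM of control mice. These were 3 of 8 members tested, all lower, against 4.66% of all genes lower, 5.47% higher and 10.1% past 2-fold in either direction. *Socs1* was at -0.57 and the STAT genes lay between -0.34 (*Stat3*) and 0.48 (*Stat5a*). In the 535 treated and 35 untreated MRL/lpr cells of this class with 0 to 10 immediate-early and heat shock UMIs, the ratio was -0.66 for *Socs3*, -2.06 for *Cish* (12 against 2 UMIs, too few to be called) and -0.06 for *Socs2*. In the better filled strata of this class *Socs3* was past 2-fold lower with treatment, at 562 against 1312 CPM with 11 to 20 such UMIs (249 and 218 cells) and 705 against 1537 CPM with 21 to 30 (40 and 355 cells). With 0 to 10 such UMIs, *Stat5a* (-2.06) and *Socs1* (-1.22, 118 against 11 UMIs) were the 2 members past 2-fold there, both lower. In this stratum 27.8% of all genes were past it in either direction. *Stat5a* had only 24 UMIs in all 822 untreated MRL/lpr cells of the class, so that its ratio rested on very few.

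Against control mice, mesangial and stromal-like cells of untreated MRL/lpr mice had less *Stat2*, 55.2 CPM (48.5 to 62.7) against 134 CPM (126 to 141), a log2 ratio of -1.27 (-1.48 to -1.07). It was the only member past 2-fold of 8 tested, where 6.53% of all genes were lower, 9.57% higher and 16.1% past 2-fold in either direction. *Socs2* had a log2 ratio of 0.90 and *Socs3* one of 0.44, and *Stat3*, at 226 against 359 CPM, one of -0.67. In cells with 0 to 10 immediate-early and heat shock UMIs, 35 in untreated MRL/lpr and 81 in control mice, the ratio was 2.94 for *Socs3* (67 against 28 UMIs), 1.97 for *Socs1* (11 against 9 UMIs), 0.63 for *Stat3* and -2.38 for *Stat2* (4 against 67 UMIs). *Socs3* was past 2-fold higher also with 11 to 20 such UMIs, at 1312 against 464 CPM, and was higher without passing 2-fold in the 3 strata above. *Stat2* was past 2-fold lower in all 5 strata. The *Stat2* level of the treated library, 60.9 CPM, was close to that of the untreated MRL/lpr library. In thinned cells a *Stat2* UMI was found in 4.26%, 11.4% and 5.80% of untreated MRL/lpr, control and treated cells. The median depth of this class was 9164 UMIs in control but 3689.5 UMIs in untreated MRL/lpr mice.

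Podocyte-like cells showed the largest difference from control mice among members of the 5 main classes with at least 50 UMIs in each library. *Socs3* stood at 375 CPM (360 to 390) in untreated MRL/lpr and 66.8 CPM (62.9 to 70.8) in control mice, and it was thus higher by a log2 ratio of 2.49 (2.39 to 2.59) or 5.61-fold. *Socs2* was higher at 14.9 against 7.14 CPM, a log2 ratio of 1.06 (0.66 to 1.46). *Cish* was higher at 23 against 22 UMIs of unequal totals (3.50 against 1.33 CPM), a log2 ratio of 1.39 with the wide interval of 0.49 to 2.31. These 3 of 8 members compare with 11.6% of all genes higher, 5.98% lower and 17.5% past 2-fold in either direction. *Socs1* was at 11.6 against 5.87 CPM, a log2 ratio of 0.98 (0.53 to 1.43) just inside the limit and past it in 5 of 11 other settings (0.70 to 1.69), and *Stat3* at 155 against 107 CPM. Free RNA held 115 and 117 CPM of *Socs1* in these libraries. It was estimated at 8.01% and 3.79% of the UMIs of this class. The share of thinned cells with a *Socs3* UMI was 28.9%, 4.81% and 21.3% in untreated MRL/lpr, control and treated mice.

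The level of *Socs3* in these podocyte-like cells was below that within free RNA of the same library (733 CPM), which was estimated at 8.01% of their UMIs. Immediate-early and heat shock genes were also higher than in control mice, at 14412 CPM against 7858 CPM. With the expected free RNA subtracted the *Socs3* ratio was 2.84. Within strata of immediate-early and heat shock UMIs, *Socs3* was at 153 against 27.5 CPM (0 to 10 such UMIs), 414 against 127 CPM (11 to 20) and 581 against 166 CPM (21 to 30) in untreated MRL/lpr and control cells, past 2-fold in each. With 31 to 40 such UMIs *Socs3* was at 884 against 248 CPM (30 and 71 cells). With 41 or more it was at 467 against 492 CPM, from only 2 and 29 cells. The treated library held only 188 podocyte-like cells, and its members past 2-fold rested on few UMIs: *Stat5a* was higher (7 against 16 UMIs, log2 ratio 1.21, -0.32 to 2.57), *Socs1* lower (6 against 76 UMIs, -1.26, -2.75 to -0.07) and *Cish* lower (1 against 23 UMIs, -2.12, -7.49 to 0.50), where 9.15% of all genes were past 2-fold (4.27% higher and 4.88% lower). The intervals of *Stat5a* and *Cish* held 0. Free RNA held 81.3 CPM of *Socs1* in the treated library, against 4.82 CPM in these cells. *Socs3* was at 211 against 375 CPM, a log2 ratio of -0.83.

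In mononuclear phagocyte-like cells no member passed 2-fold between the MRL/lpr libraries. Of 9 members 0 passed 2-fold with treatment, where 8.79% of all genes did (2.74% higher and 6.05% lower). *Socs3* was at 150 CPM (140 to 159) in treated and 155 CPM in untreated MRL/lpr mice, and *Stat3* at 128 and 116 CPM. *Stat6*, at 50.2 CPM (44.9 to 56.0) and 62.5 CPM (56.5 to 68.9), had intervals that did not overlap, and *Socs2* had a log2 ratio of -0.70 (-1.40 to -0.03). Against the 67 control cells *Stat3* was lower in untreated MRL/lpr mice, at 116 CPM (107 to 124) against 236 CPM (188 to 294), a log2 ratio of -1.03 (-1.36 to -0.68). That was 1 of 8 members, where 10.3% of all genes were lower, 22.8% higher and 33.1% past 2-fold in either direction.

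In T and NK-like cells *Cish* was past 2-fold with treatment in the direction opposite to that in endothelial-like cells. It was higher at 20 against 10 UMIs (14.0 against 4.98 CPM), a log2 ratio of 1.49 (0.33 to 2.75), and it was the only member of 9 past 2-fold, where 2.69% of all genes were higher, 8.16% lower and 10.9% past 2-fold in either direction. All of these UMIs were in cells with a T cell receptor complex gene (*Cd3* genes) and none in NK-like cells. *Stat4* had a log2 ratio of -0.38 (-0.62 to -0.13) and *Socs3* one of -0.87 (-1.19 to -0.55). The *Socs3* ratio with treatment turned to 0.11 when the expected free RNA was subtracted. Against control mice *Socs3* was higher at 149 CPM (132 to 167) against 67.6 CPM (47.4 to 93.6), a log2 ratio of 1.14 (0.64 to 1.68) and 1 of 8 members, where 14.5% of all genes were higher, 5.91% lower and 20.4% past 2-fold in either direction. With the expected free RNA subtracted this ratio turned to -0.90. *Stat3* (-0.99), *Stat4* (-0.88) and *Stat5a* (-0.85) were all below their control levels without passing 2-fold, although *Stat3* passed it in 6 of 11 other settings (-1.35 to -0.88).

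The class was split into T-like cells, with *Cd3* but no *Ncr1* or *Klrb1c* UMIs, and NK-like cells, with *Ncr1* or *Klrb1c* but no *Cd3* UMIs. *Stat4* was at 176 CPM (157 to 198) in T-like and 302 CPM (238 to 379) in NK-like cells of untreated MRL/lpr mice, at 287 CPM (233 to 349) and 535 CPM (425 to 664) in control mice, and at 144 CPM (124 to 167) and 290 CPM (198 to 409) in treated mice. NK-like cells had more *Stat4* than T-like cells in all 3 libraries, with intervals that did not overlap. *Stat3* was 155, 186 and 174 CPM in T-like cells, and 258, 639 and 290 CPM in NK-like cells, in the order untreated MRL/lpr, control and treated. The control T and NK-like class held 52 NK-like and 97 T-like cells, against 84 and 752 in untreated MRL/lpr mice.

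**Figure D3:**
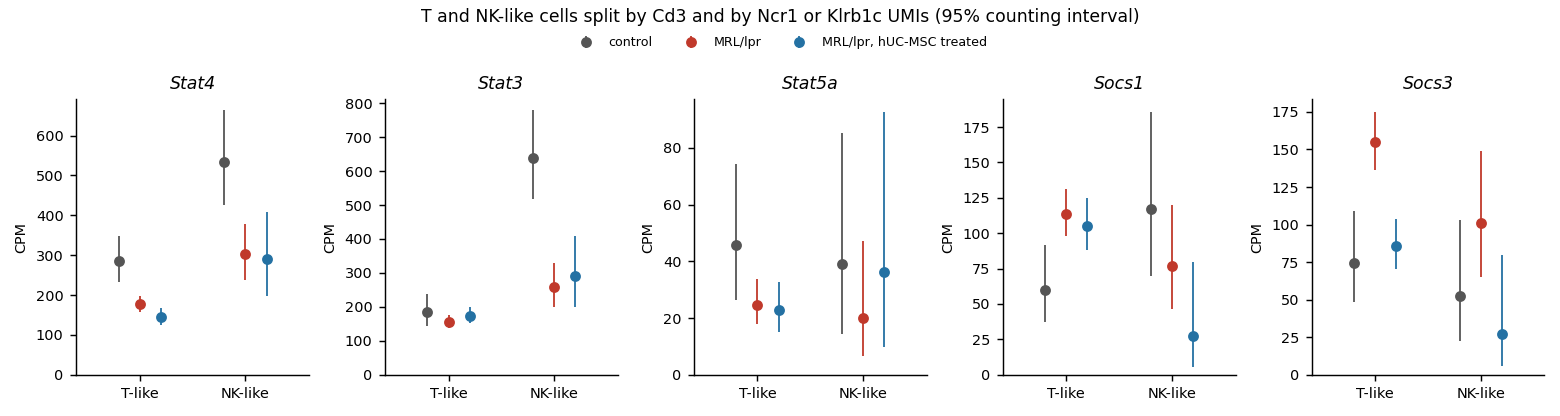
CPM of 5 members in T-like cells and NK-like cells of each library, with 95% counting intervals as bars. *Stat4* lies higher in NK-like than in T-like cells of every library, and NK-like cells of control mice stand apart for *Stat3* at 639 CPM.

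**Figure D4:**
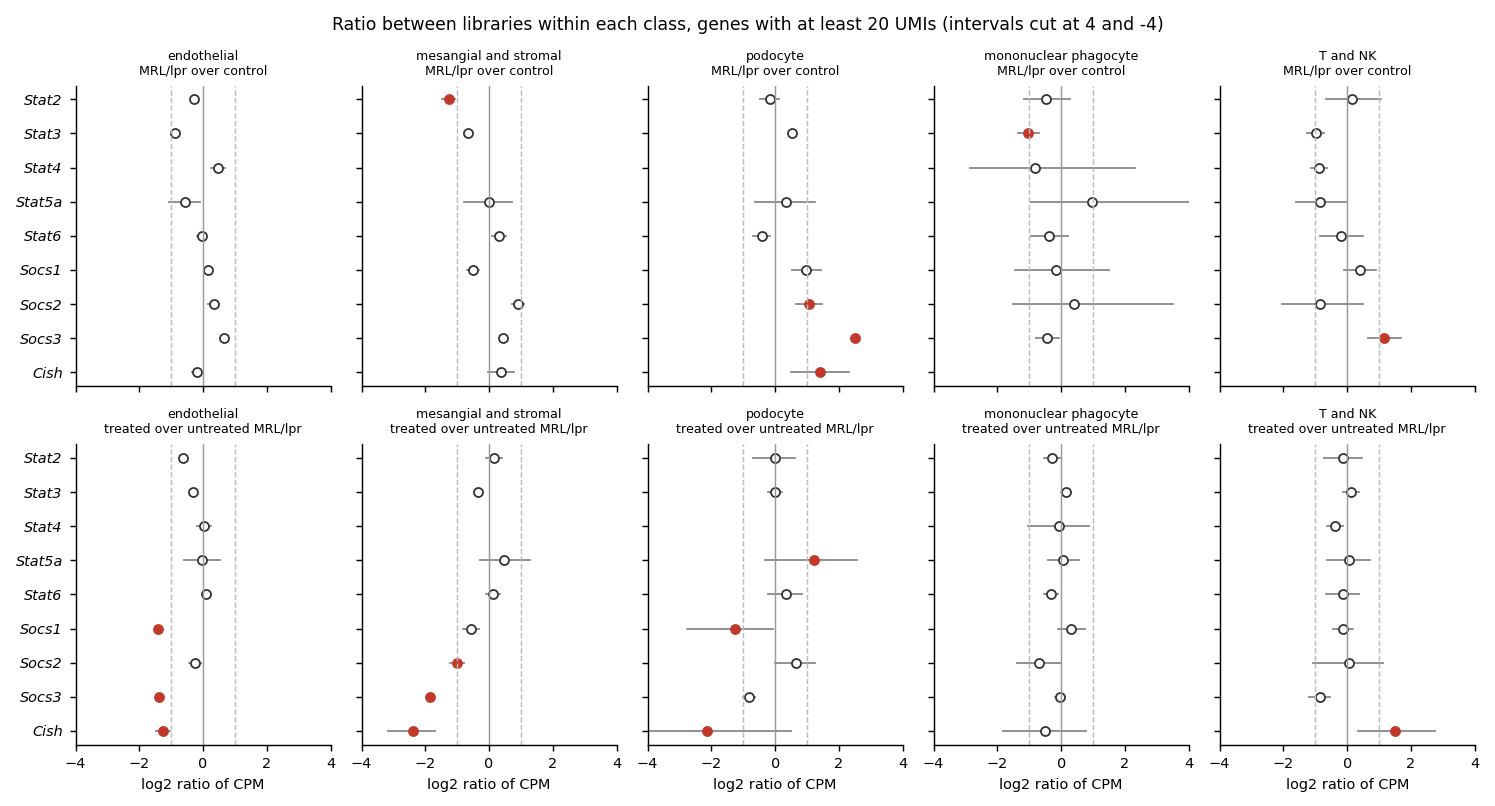
Log2 ratio of CPM between libraries for each member (rows) in 5 classes (columns), with MRL/lpr over control above and treated over untreated MRL/lpr below; bars are 95% counting intervals, dashed lines mark 2-fold and filled points are past it. Filled points on the left of the lower panels are *Socs1*, *Socs3* and *Cish* in endothelial-like cells, *Socs2*, *Socs3* and *Cish* in mesangial and stromal-like cells, and *Socs1* and *Cish* in podocyte-like cells.

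The upstream and downstream genes of the pathway were followed in lists, whose genes were chosen with results of these data known. The STAT3 target list holds the immediate-early genes *Fos* and *Junb*, and whether STAT3 acted on any listed gene was not tested. With treatment 4.48% of all genes were lower and 6.74% higher in endothelial-like cells, the background for the counts that follow. Here, the Janus kinases had 0 of 4 and the other SOCS genes (*Socs4* to *Socs7*) 0 of 4 genes past 2-fold in either comparison. Of 9 STAT2 partners and targets 6 were lower in treated than in untreated MRL/lpr mice, with a median log2 ratio of -1.18, among them *Irf1* at 371 against 1447 CPM and *Isg15*, a ubiquitin-like interferon product, at 197 against 763 CPM. Of 14 STAT3 targets 3 were lower, with a median of -0.44, among them *Junb* at 1456 against 3832 CPM and *Cebpd* at 327 against 713 CPM. Of 7 STAT6 targets 2 were lower and 2 higher, with *Klf4* at 417 against 1061 CPM and *Pparg* at 23.6 against 10.7 CPM. Of the 10 immediate-early and heat shock genes 7 were lower, with a median of -1.16.

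Between untreated MRL/lpr and control endothelial-like cells, where 6.05% of all genes were lower and 12.2% higher, the STAT2 list had 4 of 9 genes lower and none higher (median -0.56), with *Usp18*, an interferon-induced inhibitor, at 38.7 against 134.5 CPM and *Irf7* at 119 against 282 CPM. The STAT3 targets had 4 of 14 higher and none lower (median 0.40), with *Tnfaip3*, an inhibitor of NF-kB signalling, at 83.0 against 14.0 CPM and *Myc* at 10.1 against 3.02 CPM. *Il6*, a ligand of the gp130 receptors, was at 87.2 against 12.1 CPM. *Ptprc*, a leukocyte surface phosphatase, was at 27.0 against 0.881 CPM and, in treated mice, at 58.0 CPM. The summed phagocyte markers in this class were 102 CPM in untreated MRL/lpr, 2.71 CPM in control and 182 CPM in treated mice, and their part in these results was not tested.

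In mesangial and stromal-like cells, 8 of 13 STAT3 targets were lower with treatment and none higher, with a median of -1.28, where 4.66% of all genes were lower. *Tnfaip3* was at 79.9 against 393 CPM and *Myc* at 12.1 against 48.7 CPM, and *Il6* was at 104 against 881 CPM. Against control mice, where 9.57% of all genes were higher and 6.53% lower, 5 of these 13 genes were higher in untreated MRL/lpr mice (median 0.89), and 4 of 9 genes of the STAT2 list were lower (median -0.83), among them *Isg15* at 238 against 925 CPM. *Il6* was at 881 against 229 CPM. Immediate-early and heat shock genes of this class had 8 of 10 genes lower with treatment, while *Hspa1b*, a heat shock gene, was higher at 1206 against 306 CPM.

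In podocyte-like cells of untreated MRL/lpr mice, 9 of 12 STAT3 targets were higher than in control mice and none lower (median 1.88), where 11.6% of all genes were higher, with *Tnfaip3* at 41.5 against 2.91 CPM and *Bcl3* at 7.91 against 0.605 CPM. Of the gp130 receptors, *Osmr*, the oncostatin M receptor, was higher at 7.61 against 1.82 CPM and the shared chain *Il6st* at 125 against 57.3 CPM, while *Il11ra1* was lower at 13.7 against 29.7 CPM. Of 4 Janus kinases 2 were higher, with *Jak2* at 20.5 against 10.1 CPM. Immediate-early and heat shock genes had 7 of 10 genes higher and 2 lower, and *Fos* and *Junb* of the STAT3 list are immediate-early genes as well.

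In T and NK-like cells the STAT4 list was divided. Against control mice, 1 of 6 genes was higher in untreated MRL/lpr mice and 3 were lower (median -0.91), where 14.5% of all genes were higher and 5.91% lower. *Ifng*, the cytokine of the STAT4 programme, was higher at 220 against 95.8 CPM, while its upstream receptor *Il12rb2* was lower at 110 against 338 CPM and *Il18r1* at 81.2 against 177 CPM. *Jak1* was lower at 354 against 727 CPM. The control class held 52 NK-like and 97 T-like cells, against 84 and 752 in untreated MRL/lpr mice. These listed genes were not split by T-like and NK-like cells, and the part of this make-up in their ratios was not tested. With treatment 0 of 6 genes of this list passed 2-fold (median -0.40), where 10.9% of all genes did, and *Ifng* was at 437 CPM. In phagocyte-like cells with treatment, *Mrc1* and *Chil3*, targets of STAT6, were lower at 60.7 against 168 CPM and 5.56 against 32.6 CPM, and none of 14 STAT3 targets and none of 9 STAT2 partners and targets passed 2-fold, where 8.79% of all genes did.

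The genes most like each member were ranked by Pearson's r of log2(CPM + 1) over 32 sums of a class in a library, among 14802 genes. *Stat2* was most like *Irf9* (r = 0.88), the protein it pairs with. *Socs3* was most like *Egr1* (0.91), *Sbno2* (0.90) and *Fos* (0.89), and *Stat3* most like *Aff4*, *Klf6* and *Tra2a* (0.93 to 0.94). *Stat4* was most like *S1pr4*, *Acap1* and *Dnah8* (0.85 to 0.86), *Socs1* like *Timeless*, *Elk3* and *Cenpt* (0.82 to 0.85), and *Cish* like *Pcbp3*, *Hoxb5* and *Magi1* (0.83 to 0.86). *Socs2* was most like *Cbx6* (0.89), *Stat6* like *Impact* (0.93) and *Stat5a* like *Nfatc3* (0.76). Among the members, *Stat3* and *Stat6* were most alike (0.82), *Socs1* and *Socs3* gave 0.63, and *Stat4* and *Socs2* were least alike (-0.21). The 32 sums share libraries and free RNA, and these values are a description.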

How the data were processed

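Droplet single-cell RNA libraries of mouse glomerular cells, 1 per condition and 3 in all, were analysed. The authors deposited UMI counts for each gene and barcode, not scaled and before cell calling. Per the labels and file headers they were made with Cell Ranger 4 (the study's methods name another version), and the submitters' processing notes list STAR and mm10. Of 32285 gene IDs, 32158 matched GENCODE M21. Total counts were 103319588 UMIs in untreated MRL/lpr, 94903163 in control and 90812138 in treated MRL/lpr mice, and 6794880 barcodes were listed for each.

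Barcodes with at least 1000 UMIs and at most 10% mitochondrial UMIs were kept. A barcode took the class, among 14, with at least 3 positive markers and at least 3 times as many as any other class, a marker being positive when its UMIs exceeded the 99% Poisson limit for 20% free RNA. Doublets were handled by this lead, with Scrublet as an alternative. The gate rule, the immediate-early list and the split by it were set after the data had been seen, and all members and lists were chosen with earlier results of these data known. UMIs were summed per class and library, with exact Poisson intervals for levels, exact conditional binomial intervals for ratios and exact binomial intervals for shares, at 95%. With 1 library per condition, no test across conditions was possible. Pathway genes were named when past 2-fold with at least 50 UMIs in the higher library, at most 2 per direction, list and comparison, and some named genes (*Irf9*, *Ifng* with treatment) are shown beyond that rule. Promoters were taken from RefSeq (GRCm38.p6). Scripts ran under Python 3.11.15 (scanpy 1.11.5, scipy 1.17.1, numpy 2.4.6, matplotlib 3.10.9). Of the alternatives, 13 were planned and 2 added after the data had been seen.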

Additional observations from a re-analysis of the deposited data

Results flagged for a closer look

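*Cish* differed in sign between classes. The log2 ratio of treated over untreated MRL/lpr mice was 1.49 in T and NK-like cells (20 against 10 UMIs), -1.26 in endothelial-like cells, -2.40 in mesangial and stromal-like cells and -2.12 in podocyte-like cells (1 against 23 UMIs). Each was past 2-fold, and the difference between the classes was not tested.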

How the results depend on the processing

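No paired analysis was possible because each condition was 1 library. Over 1032 alternative values of 84 member ratios, 924 stayed within the counting interval of the reported value, 105 moved beyond it, and 3 ratios past 2-fold changed sign. Ratios within 2-fold also changed sign, such as *Stat2* in treated podocyte-like cells, which kept it in 3 of 11 settings. With few immediate-early UMIs, against control mice, *Stat3* in mesangial and stromal-like cells went from -0.67 to 0.63 and *Socs1* there from -0.50 to 1.97. In endothelial-like cells, under the same setting and comparison, *Stat3* went from -0.89 to 0.09, *Socs2* from 0.34 to -1.08 and *Stat4* from 0.47 to -0.58. These rested on 316 untreated MRL/lpr and 664 control cells. With cells of few immediate-early UMIs, endothelial-like cells had 3 members past 2-fold with treatment, all higher (2111 against 316 cells, with 9.85% of all genes past 2-fold), *Socs1* turned to 0.26 and *Cish* to 0.62, and 1 member was past 2-fold against control mice (12.6% of all genes). Subtracting free RNA turned *Socs3* in T and NK-like cells to -0.90 against control mice and to 0.11 with treatment. It also put 1 member (*Socs1*) past 2-fold in treated phagocyte-like cells (12.99% of all genes). In mesangial and stromal-like cells against control mice, the 1 member became 3 with 200 to 3000 genes per barcode (2 higher), 2 with a stricter gate, 2 with thinned cells and 3 with few immediate-early UMIs (2 higher, 35 against 81 cells), where 15.7%, 15.0%, 14.8% and 23.0% of all genes were past 2-fold. In treated T and NK-like cells the 1 member became 0 at 2000 UMIs, 0 with thinned cells and 0 at a minimum of 50 UMIs, since *Cish* then had too few UMIs to be called, while its ratio was at least 1.29 in 11 of 11 settings. Under 11 other settings, *Socs1* in treated endothelial-like cells ranged from -1.55 to -1.37, *Socs3* from -1.50 to -1.34 and *Cish* from -1.39 to -1.21, all past 2-fold. *Socs3* in treated mesangial and stromal-like cells ranged from -2.01 to -1.82, *Socs2* there from -1.27 to -0.91, past 2-fold in 6 of 11, and *Cish* from -2.85 to -0.79, past it in 10 of 11. *Socs3* in T and NK-like cells against control mice was past 2-fold in 7 of 11, and *Socs1* in treated podocyte-like cells in 7 of 10. The causes were not tested. Depth limits *Stat4* outside T and NK-like and endothelial-like cells, and *Cish* and *Stat5a* in the smaller classes.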

Other observations

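Barcodes that received no class had all 4 feedback genes lower with treatment. *Socs3* was at 364 against 1005 CPM (log2 ratio -1.46), *Socs1* at 63.9 against 161 CPM (-1.33), *Cish* at 6.38 against 18.6 CPM (-1.55) and *Socs2* at 22.4 against 48.9 CPM (-1.13). These 4 of 9 members were past 2-fold, where 11.2% of all genes were, and against control mice 0 members were, where 22.8% of all genes were. The treated levels of *Socs3*, *Socs1* and *Cish* lay below those within free RNA itself (491, 81.3 and 11.8 CPM). The share of free RNA in barcodes without a class was not estimated. Of the barcodes without a class, 3231 of 5330 untreated and 6138 of 8160 treated ones had under 3 positive markers. Their median depth was 3079.5 and 2249.5 UMIs, in that order. In neutrophil-like cells, with 258, 27 and 206 cells in untreated MRL/lpr, control and treated mice, *Stat3* was at 260, 386 and 195 CPM and *Socs3* at 406, 213 and 238 CPM. In proximal tubule-like cells *Socs3* was at 52.5, 10.7 and 55.6 CPM, from 156, 5 and 25 UMIs in 395, 46 and 48 cells. The *Socs3* levels of both classes lay below that within free RNA itself (733, 549 and 491 CPM). Free RNA was estimated at 24.8%, 6.41% and 18.9% of the UMIs of neutrophil-like cells. In proximal tubule-like cells it was 6.51%, 2.80% and 6.27%. The free RNA was estimated at 11.9%, 4.12% and 8.74% of the UMIs of endothelial-like cells in these libraries, as the middle of 11, 9 and 11 marker lists that ran from 3.82% to 88.1%, from 1.69% to 90.1% and from 3.63% to 62.4%.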
